A study of Mus musculus with 7 samples.

Results

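Calcium release from the sarcoplasmic reticulum (SR) of striated muscle takes place where the junctional SR membrane faces the surface membrane, at the dyad of the heart and the triad of skeletal muscle. There the ryanodine receptor releases calcium, calsequestrin stores it in the SR lumen, triadin, junctin and the histidine-rich calcium-binding protein sit beside them, and junctophilins hold both membranes together. Several of these proteins exist as a skeletal and a cardiac paralog, and the adult ventricle mainly uses the cardiac forms RyR2, calsequestrin-2 and junctophilin-2. The genes described here are *Ryr1*, *Ryr2*, *Ryr3*, *Casq1*, *Casq2*, *Trdn*, *Asph*, *Hrc*, *Jph1* and *Jph2*. They were chosen by name as the ryanodine receptor, calsequestrin and junctional genes, and all 10 were found among the 20927 entries kept from the count table.

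The samples were left ventricles of 3 wild-type mice (WT, replicates 1, 3 and 4) and of 4 mice homozygous for the titin missense variant A178D (A178D, replicates 1 to 4), all labelled C57BL/6J. The variant lies in the part of titin that binds telethonin at the Z-disc. It was introduced with CRISPR-Cas9 into C57BL/6N embryonic stem cells, and the mice were then backcrossed to C57BL/6J. The age and sex of these mice are not given in the sources used here. Transcripts of the Y-linked gene *Ddx3y* were present in every heart, at 75.2 to 119 CPM. The p-values measure the spread between these samples.

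The 3 WT libraries held 51797208, 54245530 and 41102868 counts, and the 4 A178D libraries 40623300, 52345529, 42174448 and 33080675. Odd numbers made up 17.6 to 20.3% of the counts between 1 and 20 in a library, against 47.9 to 50.2% above 1000, and a low count may thus stand for fewer fragments than its number. Levels are given as CPM, which are counts scaled to a common library size with the TMM method, and levels of different genes are compared only per kilobase of merged exons. The test of genotype was the quasi-likelihood test of edgeR, and a gene was called where its p, adjusted over 13894 tested genes by the Benjamini-Hochberg method, was under 0.05. Fold changes are on the log2 scale, A178D over WT, with their standard error (SE). In whole tissue, fewer cells of a type and less RNA per cell cannot be told apart.

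Counts followed transcript length and GC content differently from heart to heart. At the length and GC content of *Ryr2*, the fitted trend put A178D replicate 4 at -0.33 and WT replicate 1 at 0.16 on the log2 scale relative to the mean of all hearts, against -0.05 to 0.09 in the other 5 hearts. This differed between genes, and for *Trdn* A178D replicate 4 was at -0.21 and WT replicate 1 at 0.01. Values with these trends removed are therefore given for the long genes. Markers of ventricular cardiomyocytes were abundant in every heart. Their 8 genes summed to 94368 ± 3016 CPM (SD, n = 3) in WT hearts. The sum was 93560 ± 5423 CPM (SD, n = 4) in A178D hearts. Of the 5 atrial markers, *Bmp10* had no count in any heart, and *Myl7* had at most 0.152 CPM. *Myl4* was at 1.88 ± 0.0297 CPM (SD, n = 3) in WT hearts and 2.95 ± 0.8 (SD, n = 4) in A178D hearts, without overlap (fold change 0.65; edgeR, adjusted p = 0.171), and *Nppa* at 182 and 451 CPM.

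In A178D hearts the skeletal paralogs *Ryr1* and *Casq1* rose, while no other gene of the release unit passed the test. *Ryr1* and *Casq1* were each more than doubled, to 2.40 and 2.20 times the WT mean, yet both stayed far below their cardiac paralogs. These were 2 of 10 genes, where 2.35% of all tested genes were called, 1.04% higher and 1.31% lower in A178D. At an unadjusted p under 0.05 there were 5 genes higher and 0 lower, against 7.93% and 8.81% of all tested genes. All A178D hearts lay above all WT hearts in 5 of the 10 genes (*Ryr1*, *Ryr3*, *Casq1*, *Casq2* and *Asph*), and no gene showed the opposite. Over all tested genes the genotypes did not overlap in 16.1%, made up of 7.61% with A178D above and 8.52% with A178D below. The median log2 fold change of the 10 genes was 0.11, and that of all tested genes was 0.00.

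Per kilobase, the order of the levels in WT hearts ran from *Hrc* (612 ± 27.9 CPM per kb, SD, n = 3) over *Casq2* (449 ± 17.5), *Jph2* (161 to 196 in the 3 hearts), *Ryr2* (80.1 ± 5.66), *Trdn* (43.4 ± 3.28), *Asph* (15.8 ± 0.966), *Jph1* (6.58 ± 0.586), *Casq1* (4.28 ± 0.654) and *Ryr3* (0.142 ± 0.0345) to *Ryr1* (0.0339 ± 0.00861). Each gene's lowest WT heart was above the highest WT heart of the next gene. In A178D hearts the order was the same except for *Casq1* (9.42 ± 1.69 CPM per kb, SD, n = 4), which lay above *Jph1* (6.18 ± 0.334) with no overlap. With the longest coding transcript as the length, all ranks were the same, but *Ryr2* (119 ± 19.4 CPM per kb) and *Trdn* (82.5 ± 7.55) overlapped in A178D hearts.

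**Figure D1:**
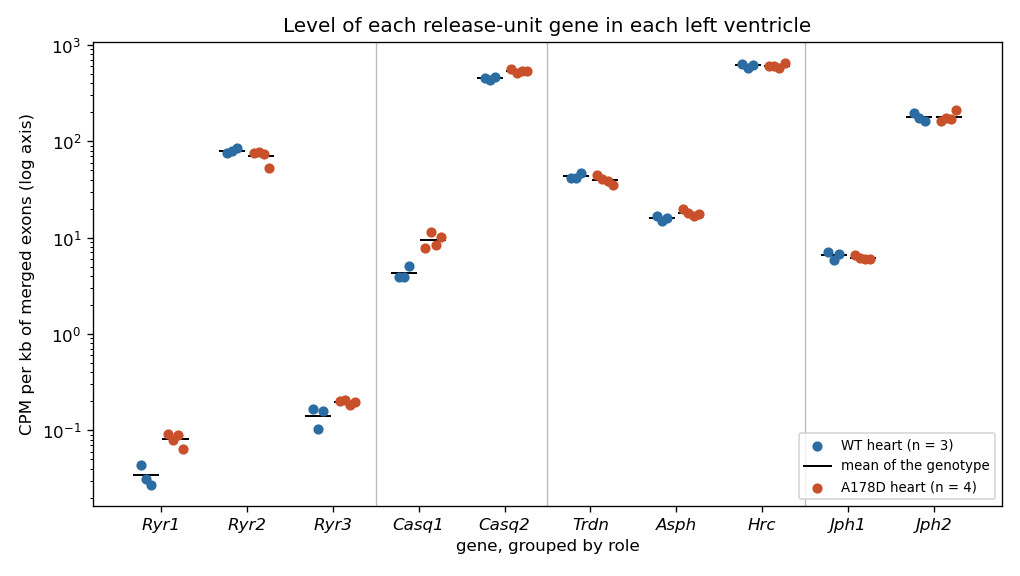
Level of the 10 release-unit genes in every heart, as CPM per kilobase of merged exons on a log axis, with 3 WT and 4 A178D hearts as points and the mean of each genotype as a line. *Ryr1* and *Casq1* are higher in all A178D hearts than in all WT hearts and lie below *Ryr2* and *Casq2* in each of them.

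Among the release channels, *Ryr2* (ENSMUSG00000021313, chromosome 13 from 11553102 to 12106945) encodes the ryanodine receptor of the heart. All positions are on the build GRCm38 with GENCODE M21 gene models. Its level was 2150, 2290 and 2475 CPM in WT replicates 1, 3 and 4, and 2175, 2203, 2126 and 1520 CPM in A178D replicates 1 to 4. A178D replicate 4 was lowest, and the other 3 A178D hearts lay within or just below the WT range. The fold change of -0.20 (SE 0.11, 95% confidence interval -0.44 to 0.03) did not pass the test (edgeR, adjusted p = 0.383). Removing the trends with length and GC content gave -0.08, and leaving out A178D replicate 4 gave -0.09.

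*Ryr1* (ENSMUSG00000030592, chromosome 7 from 29003344 to 29125179) encodes the ryanodine receptor of skeletal muscle, which opens there through contact with the surface calcium channel. It had 50, 37 and 24 counts in WT replicates 1, 3 and 4, and 81, 92, 84 and 45 counts in A178D replicates 1 to 4. As levels these were 0.951, 0.679 and 0.591 CPM in WT, and 2.01, 1.75, 1.97 and 1.39 CPM in A178D hearts. Every A178D heart was above every WT heart, with A178D replicate 4 the lowest of its group. *Ryr1* rose by 1.26 on the log2 scale (SE 0.28, 95% confidence interval 0.66 to 1.86; edgeR, adjusted p = 0.0328). The call depended on single hearts. In edgeR it was lost without WT replicate 3 (adjusted p = 0.159), WT replicate 4 (0.128), A178D replicate 1 (0.104), A178D replicate 2 (0.0694) or A178D replicate 3 (0.0857), with fold changes from 1.13 to 1.27. Calls over all genes also became fewer in these fits, from 145 higher and 182 lower with all hearts to 22 and 31 without WT replicate 3, 40 and 42 without WT replicate 4, 40 and 50 without A178D replicate 1, 101 and 115 without A178D replicate 2, and 78 and 112 without A178D replicate 3. The *Ryr1* call was present without WT replicate 1 (1.48, adjusted p = 0.0206) and without A178D replicate 4 (1.35, 0.0274), 2 fits with more calls over all genes (215 and 238, then 154 and 215). With the trends removed the rise was 1.39 (edgeR, adjusted p = 0.0133).

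*Ryr3* (ENSMUSG00000057378, chromosome 2 from 112631355 to 113217096) encodes the receptor that many tissues hold at low levels. Its level was 3.16, 1.94 and 2.98 CPM in WT, and 3.79, 3.95, 3.49 and 3.71 CPM in A178D hearts. The A178D hearts lay close together and above all WT hearts, of which WT replicate 3 was lowest. The fold change of 0.48 (SE 0.19, 95% confidence interval 0.06 to 0.89) did not pass the test (edgeR, adjusted p = 0.231). It was 0.62 with the trends removed (95% confidence interval 0.20 to 1.03; edgeR, adjusted p = 0.105), and without single hearts it lay between 0.28, without WT replicate 3, and 0.61, without WT replicate 1. *Ryr3* overlaps *Aven*, a gene on the opposite strand with 12.6 to 17.5 CPM and a fold change of 0.08. Whether the counting used strand is not given in the sources used here, so that reads of these genes cannot be told apart where they overlap. The same holds for *Ryr1*, which overlaps *Gm26604*, *Gm44408* and *Gm38979* on the opposite strand, and for *Casq1*, which overlaps *Gm17224*, and none of these 4 is in the count table. *Ryr2*, *Trdn* and *Jph1* overlap further genes on the opposite strand, none of them with counts in the table. *Ryr3* also lies 35.6 Mb from *Ttn*, the edited gene, on the same chromosome. No stretch of 76 bases, the read length, is shared between the annotated transcripts of any pair of the 3 receptor genes, nor between *Casq1* and *Casq2* or *Jph1* and *Jph2*. At 25 bases, 14 stretches are shared between *Ryr1* and *Ryr2*, 7 between *Ryr1* and *Ryr3*, and 11 between *Ryr2* and *Ryr3*. *Casq1* and *Casq2* share 1 such stretch, and *Jph1* and *Jph2* share 11.

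Of the luminal calcium buffers, *Casq1* (ENSMUSG00000007122, chromosome 1 from 172209894 to 172219868) encodes the calsequestrin of skeletal muscle. Its level was 7.69, 7.54 and 9.82 CPM in WT, and 15.1, 22.4, 16.3 and 19.7 CPM in A178D hearts. The lowest A178D heart was well above the highest WT heart. *Casq1* rose by 1.14 on the log2 scale (SE 0.15, 95% confidence interval 0.83 to 1.46; edgeR, adjusted p = 0.0021). It was called in each of the 7 edgeR fits that left out 1 heart, with rises between 1.04 and 1.27 and adjusted p between 0.00275 and 0.0248. The fitted trends at its length and GC content lay between -0.08 and 0.10 on the log2 scale, and the rise with them removed was 1.07.

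*Casq2* (ENSMUSG00000027861, chromosome 3 from 102086415 to 102146514) encodes cardiac calsequestrin, the main calcium store of the cardiac SR. Its level was 1240, 1177 and 1271 CPM in WT, and 1526, 1383, 1462 and 1455 CPM in A178D hearts, without overlap. The A178D mean was 18.5% above the WT mean. The fold change of 0.24 (SE 0.06, 95% confidence interval 0.11 to 0.38) missed the threshold (edgeR, adjusted p = 0.0651). DESeq2, which called 5.06% of the genes with an adjusted p, called *Casq2* (adjusted p = 0.00685). EdgeR with the trends removed, which called 3.53% of genes, also called it (fold change 0.21, adjusted p = 0.0478). In the edgeR fits that left out 1 heart the adjusted p lay between 0.0513 and 0.261.

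**Figure D2:**
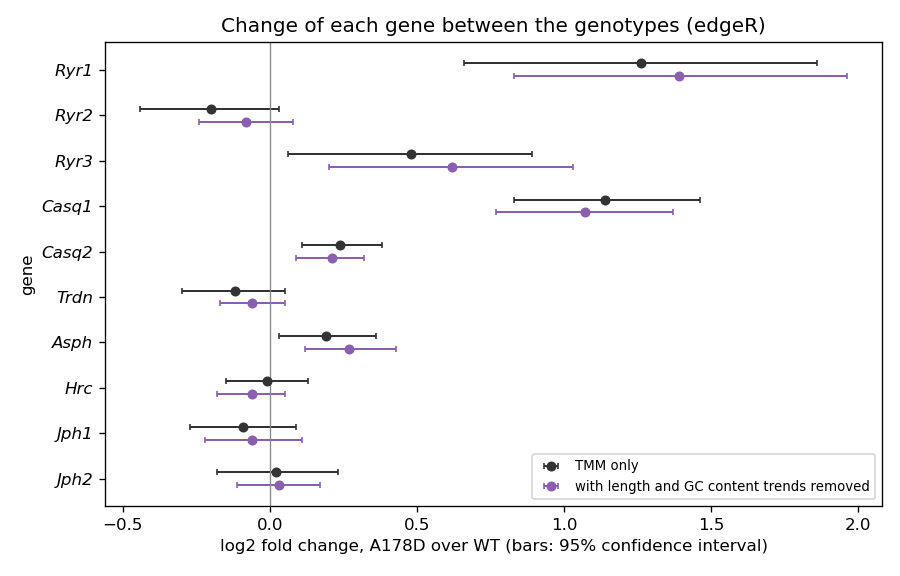
Log2 fold change of each gene, A178D over WT, as points with 95% confidence intervals from edgeR, before and after removal of the fitted trends with length and GC content. The intervals of *Ryr1* and *Casq1* lie farthest above 0, and those of *Ryr2*, *Trdn*, *Hrc*, *Jph1* and *Jph2* include 0 in both fits.

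The proteins around calsequestrin come from *Trdn*, *Asph* and *Hrc*, none of which was called by edgeR, DESeq2 or limma-voom with genotype as the only factor, while *Asph* had an unadjusted p under 0.05 in edgeR. *Trdn* (ENSMUSG00000019787, chromosome 10 from 33080554 to 33476709) encodes triadin, which links calsequestrin to the release channel. Its level was 387, 389 and 441 CPM in WT, and 414, 378, 365 and 332 CPM in A178D hearts, with overlap and with A178D replicate 4 again lowest. Its fold change was -0.12 (SE 0.08, 95% confidence interval -0.30 to 0.05; edgeR, adjusted p = 0.49), or -0.06 with the trends removed.

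*Asph* (ENSMUSG00000028207, chromosome 4 from 9448069 to 9669344) encodes junctin, a binding partner of calsequestrin, as well as junctate and the enzyme aspartate beta-hydroxylase. The annotation lists 20 transcripts for it and 8 for *Trdn*, and gene counts pool them. *Asph* overlaps *Clvs1* on the opposite strand, whose reads cannot be told apart from its own there without knowing the use of strand. *Asph* had 269, 238 and 256 CPM in WT, and 322, 292, 272 and 280 CPM in A178D hearts. The lowest A178D heart was just above the highest WT heart. A fold change of 0.19 (SE 0.08, 95% confidence interval 0.03 to 0.36) did not pass the test (edgeR, adjusted p = 0.217), nor did 0.27 with the trends removed (edgeR, adjusted p = 0.0566).

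*Hrc* (ENSMUSG00000038239, chromosome 7 from 45335290 to 45338974) encodes the histidine-rich calcium-binding protein of the SR lumen. It had the highest level per length of the 10 genes in both genotypes. Its level was 1622, 1489 and 1602 CPM in WT, and 1543, 1559, 1477 and 1648 CPM in A178D hearts, which overlapped fully. With a fold change of -0.01, its 95% confidence interval ran from -0.15 to 0.13 (edgeR, adjusted p = 0.947).

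The membrane tethers *Jph1* and *Jph2* encode junctophilin-1, the main form of skeletal muscle, and junctophilin-2, the form of the heart. *Jph1* (ENSMUSG00000042686, chromosome 1 from 16964560 to 17097889) had 35.2, 29.6 and 33.9 CPM in WT, and 33.3, 30.6, 29.8 and 29.8 CPM in A178D hearts. *Jph2* (ENSMUSG00000017817, chromosome 2 from 163336242 to 163397993, 86.4 Mb from *Ttn*) had 835, 750 and 685 CPM in WT, and 694, 747, 726 and 908 CPM in A178D hearts. The genotypes overlapped in both genes. For *Jph1* the fold change was -0.09 (95% confidence interval -0.27 to 0.09; edgeR, adjusted p = 0.638). For *Jph2* it was 0.02 (95% confidence interval -0.18 to 0.23; edgeR, adjusted p = 0.939).

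The skeletal and cardiac paralogs were then compared within each heart, as the log2 ratio of their counts, which does not depend on library size. The *Ryr1* to *Ryr2* ratio and the *Casq1* to *Casq2* ratio were higher in every A178D heart than in every WT heart, and the *Jph1* to *Jph2* ratio was not. These 3 pairs were tested by exact two-sided permutation of the 7 hearts, in which 0.0286 is the smallest p possible.

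The log2 ratio of *Ryr1* to *Ryr2* was -11.13, -11.70 and -12.00 in WT, and -10.07, -10.29, -10.07 and -10.08 in A178D hearts. The WT hearts spread more widely than the A178D hearts. The means were -11.61 ± 0.44 (SD, n = 3) and -10.13 ± 0.11 (SD, n = 4), a difference of 1.48 or 2.79-fold (exact permutation test, two-sided, p = 0.0286, adjusted p over the 3 pairs = 0.0429). Per length, *Ryr1* made up 0.0429 ± 0.0138% of both transcripts in WT and 0.117 ± 0.00848% in A178D hearts.

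The log2 ratio of *Casq1* to *Casq2* was -7.33, -7.28 and -7.01 in WT, and -6.65, -5.95, -6.49 and -6.20 in A178D hearts. A178D replicate 2 was highest. The means were -7.21 ± 0.17 (SD, n = 3) and -6.32 ± 0.31 (SD, n = 4), a difference of 0.89 or 1.85-fold (exact permutation test, two-sided, p = 0.0286, adjusted p = 0.0429). Per length, *Casq1* made up 0.941 ± 0.114% of both calsequestrin transcripts in WT and 1.75 ± 0.374% in A178D hearts.

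For the junctophilins, the log2 ratio was -4.57, -4.66 and -4.34 in WT, and -4.38, -4.61, -4.60 and -4.93 in A178D hearts, with overlap. The means were -4.52 ± 0.17 (SD, n = 3) and -4.63 ± 0.23 (SD, n = 4), and the difference of -0.11 did not pass the test (exact permutation test, two-sided, p = 0.486, adjusted p = 0.486). Per length, *Jph1* held 3.58 ± 0.413% of the pair in WT and 3.35 ± 0.494% in A178D hearts. Among these 3 pairs, *Jph1* had the largest share.

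**Figure D3:**
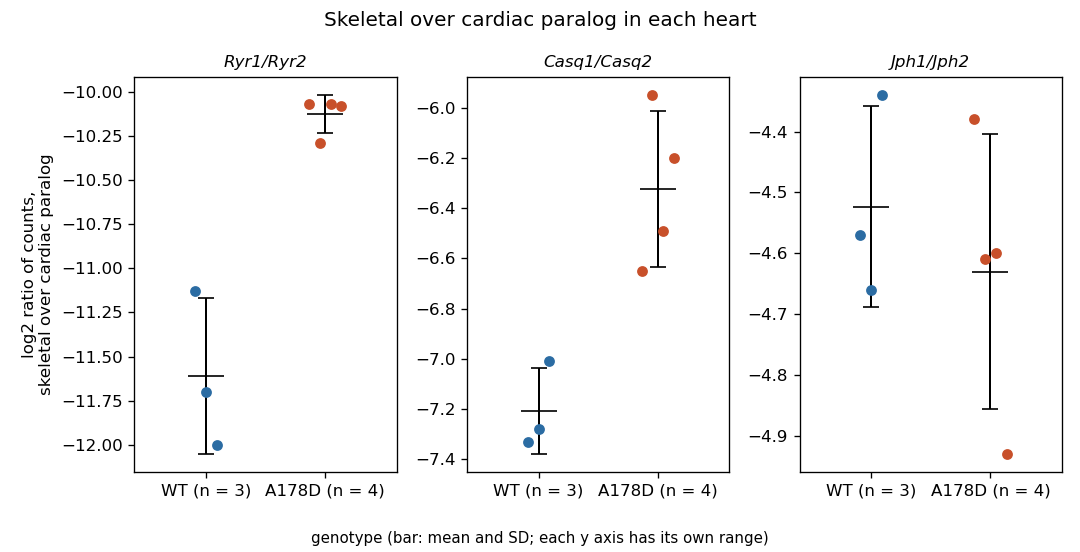
Log2 ratio of the counts of the skeletal over the cardiac paralog in each heart, with the mean and SD of 3 WT and 4 A178D hearts and a y axis of its own for each pair. The genotypes are apart for *Ryr1* over *Ryr2* and for *Casq1* over *Casq2*, and overlap for *Jph1* over *Jph2*.

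Since *Ryr1* and *Casq1* both rose, the 250 bases before their gene starts in RefSeq (build GRCm38.p6, where 6 of the 10 genes matched) are shown with those of their cardiac paralogs. The *Ryr1* window overlaps the 5′ end of the GENCODE gene model given above. Sequences run 5′ to 3′ on the strand of the gene. Capitals mark the E-box CANNTG, the motif bound by myogenic and other basic helix-loop-helix factors.
*Ryr1*, chr7:29125152-29125401, minus strand: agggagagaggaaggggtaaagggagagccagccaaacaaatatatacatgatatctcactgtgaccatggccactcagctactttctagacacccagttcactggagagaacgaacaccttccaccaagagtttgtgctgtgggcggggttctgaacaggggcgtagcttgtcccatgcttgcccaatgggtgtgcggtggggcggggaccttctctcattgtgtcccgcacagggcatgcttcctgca
*Casq1*, chr1:172219896-172220145, minus strand: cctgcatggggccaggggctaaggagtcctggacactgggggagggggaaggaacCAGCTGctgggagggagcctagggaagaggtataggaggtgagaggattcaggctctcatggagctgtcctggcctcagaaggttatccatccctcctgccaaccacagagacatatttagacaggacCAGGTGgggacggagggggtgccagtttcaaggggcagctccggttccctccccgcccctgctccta
*Ryr2*, chr13:12106946-12107195, minus strand: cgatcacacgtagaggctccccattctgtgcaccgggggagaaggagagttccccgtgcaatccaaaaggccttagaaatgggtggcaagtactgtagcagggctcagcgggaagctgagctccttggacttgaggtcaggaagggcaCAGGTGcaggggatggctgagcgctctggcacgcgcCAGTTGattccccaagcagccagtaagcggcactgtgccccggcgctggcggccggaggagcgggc
*Casq2*, chr3:102086165-102086414, plus strand: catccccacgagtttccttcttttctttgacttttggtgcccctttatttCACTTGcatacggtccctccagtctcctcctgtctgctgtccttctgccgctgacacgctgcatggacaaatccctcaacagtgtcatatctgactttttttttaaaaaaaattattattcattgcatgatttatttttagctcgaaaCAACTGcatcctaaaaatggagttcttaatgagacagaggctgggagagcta

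The *Casq1*, *Ryr2* and *Casq2* windows each held 2 matches to the E-box and the *Ryr1* window 0, where 66.2% of 32851 promoter windows of this length held at least 1. The *Casq2* window alone of the 4 held a match to the MEF2 motif, which was found in 2.92% of all windows. The MCAT motif CATTCC (12.6% of all windows), the GATA motif in its forms TGATAA and AGATAA (16.6%) and the CArG box (1.47%) had no match in the 4 windows. All motifs were searched on both strands. A match is a description of the letters only.

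Skeletal muscle fibre markers were at trace or low levels. Of 16 genes on this list, 10 passed the filter on low counts. None was called by edgeR, DESeq2 or limma-voom. In edgeR 3 had an unadjusted p under 0.05, all higher in A178D, against 7.93% of all tested genes. Of the 10 genes, 6 had a fold change above 0 and 4 below. The list summed to 67.9, 81.1 and 77.5 CPM in WT, and 94.4, 83.8, 85.0 and 93.9 CPM in A178D hearts, with means of 75.5 ± 6.83 (SD, n = 3) against 89.3 ± 5.64 (SD, n = 4). Among its genes were *Mybpc2*, at 29.7 CPM in WT and 32.3 in A178D hearts, and *Myl1*, at 22.7 and 28.9 CPM. The myosin heavy chains that define fast fibres were near 0. They had at most 0.0367 CPM for *Myh4*, 0.114 for *Myh1* and 0.293 for *Myh2*, each of these in a WT heart. The list holds no slow myosin heavy chain. The list shares *Atp2a1* with the partner genes below. The part of these markers in the rises of *Ryr1* and *Casq1* was not tested.

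Markers of other cells that passed the test were *Nppa* of the atrial list and those of smooth muscle. *Nppa*, which encodes a natriuretic peptide that stressed ventricles also make, rose from 182 to 451 CPM (fold change 1.31; edgeR, adjusted p = 0.0146). In edgeR its call was lost without WT replicate 3 (adjusted p = 0.086), WT replicate 4 (0.0598) or A178D replicate 1 (0.0555). All 6 smooth muscle genes had a fold change below 0, and 5 were called lower, or 2 without WT replicate 3 or WT replicate 4, 3 without WT replicate 1, A178D replicate 1 or A178D replicate 3, and 4 without A178D replicate 2 or A178D replicate 4. Their sum was 656, 658 and 614 CPM in WT, and 398, 477, 492 and 490 CPM in A178D hearts. With the trends removed, edgeR called all 6, also *Smtn* (-0.22, adjusted p = 0.0446), which had an adjusted p of 0.212 with them. With all hearts, no gene of the endothelial list was called by edgeR, DESeq2 or limma-voom, with 0 at an unadjusted p under 0.05 in edgeR, and its sum was 941 ± 76.3 CPM (SD, n = 3) in WT against 941 ± 17.3 (SD, n = 4) in hearts with the variant. Fibroblast markers summed to 837 ± 33.7 and 891 ± 49.1 CPM. EdgeR called 0 of them, and DESeq2 called 1, *Col1a1*. At an unadjusted p under 0.05 in edgeR there were 2 of 5, both higher, against 7.93% of all tested genes. With the trends removed, edgeR called *Col1a1* (0.51, adjusted p = 0.0187) and *Col1a2* (0.31, adjusted p = 0.0441), and it called *Col1a1* without WT replicate 1 and with no filter on low counts. The part of these markers in the values of the release-unit genes was not tested.

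Around the release unit, 44 partner genes were listed by name, of which 42 passed the filter. Only *Itpr2* was called, lower in A178D hearts, against 2.35% of all tested genes. At an unadjusted p under 0.05, 6 partners were higher and 4 lower, where 16.7% of all tested genes passed that limit. The genotypes did not overlap in 9 partners, with 4 higher and 5 lower in A178D, against 16.1% of all tested genes. No conclusion is drawn from these counts of higher genes, since both include *Jph3*, which passed the filter only through A178D hearts.

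*Itpr2* encodes the type 2 inositol trisphosphate receptor, another calcium release channel of the SR and the main such receptor of cardiomyocytes. Its level was 22.7, 24.4 and 25.2 CPM in WT, and 17, 18.3, 19.1 and 14.3 CPM in A178D hearts, with every A178D heart below every WT heart. *Itpr2* fell, with a fold change of -0.49 (SE 0.10; edgeR, adjusted p = 0.0279), or -0.38 with the trends removed (edgeR, adjusted p = 0.0252). In edgeR the call was lost without WT replicate 3 (-0.47, adjusted p = 0.133), WT replicate 4 (-0.45, 0.12) or A178D replicate 1 (-0.48, 0.0884). *Itpr1* and *Itpr3*, of the same family, had fold changes of -0.08 and -0.11 (edgeR, adjusted p = 0.747 and 0.594). Per kilobase, *Itpr1* was at 3.72 to 4.25 CPM in these whole WT ventricles, against 1.53 to 1.7 for *Itpr2*.

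None of the 12 channel-bound regulators, such as the FK506-binding proteins and sorcin, was called by edgeR, DESeq2 or limma-voom. In edgeR 0 of them had an unadjusted p under 0.05, and the genotypes overlapped in each. *Fkbp1b*, whose protein binds RyR2, was at 0.523 ± 0.248 CPM (SD, n = 3) in WT hearts and had a fold change of 0.50 (edgeR, adjusted p = 0.564).

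On the surface side, *Cacna1c* encodes the pore of the cardiac L-type calcium channel and *Cacna1s* that of the skeletal one. *Cacna1c* had 409, 364 and 366 CPM in WT, and 319, 338, 318 and 267 CPM in A178D hearts, all A178D hearts being lower. The fold change of -0.29 (SE 0.08) missed the threshold in edgeR (adjusted p = 0.0921) and passed it in DESeq2 (adjusted p = 0.029), and it was -0.17 with the trends removed. *Cacna1s*, at 36.6 ± 8.87 CPM (SD, n = 3) in WT hearts and 34.7 ± 3.41 (SD, n = 4) with the variant, had a fold change of -0.08 (95% confidence interval -0.36 to 0.21; edgeR, adjusted p = 0.824).

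For the SR calcium pumps, *Atp2a1* encodes the skeletal and *Atp2a2* the cardiac form. *Atp2a1* had 0.856, 0.935 and 1.21 CPM in WT, and 2.5, 1.78, 1.87 and 1.02 CPM in A178D hearts. A178D replicates 1, 2 and 3 lay above all WT hearts, and A178D replicate 4 lay within the WT range. The fold change of 0.86 (SE 0.31) did not pass the test (edgeR, adjusted p = 0.176). *Atp2a2*, at 19741 ± 1007 CPM (SD, n = 3) in WT hearts and 17651 ± 670 (SD, n = 4) with the variant, had a fold change of -0.16 (edgeR, adjusted p = 0.193). All A178D hearts lay below all WT hearts. With the trends removed its fold change was -0.11 (edgeR, adjusted p = 0.264). Without both WT replicate 1 and A178D replicate 4, chosen after seeing the data, *Atp2a2* passed the test (-0.18; edgeR, adjusted p = 0.0378). That fit called 353 genes higher and 407 lower, against 145 and 182 with all hearts. *Atp2a2* passed in none of the other fits.

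Among the other junctophilins, *Jph3* had 2, 5 and 0 counts in WT and 8, 10, 14 and 10 counts in A178D hearts. It passed the filter on low counts only through A178D hearts, so that its test result is not given here. It is included in both counts of higher partners above. *Jph4* had a fold change of -0.15 (edgeR, adjusted p = 0.907). Both are known mainly from the brain.

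Further triad genes of skeletal muscle were also at low levels. *Jsrp1*, which encodes the triad protein JP-45, had 0.818, 0.569 and 0.492 CPM in WT, and 1.12, 1.02, 1.10 and 1.73 CPM in A178D hearts. *Sypl2*, which encodes mitsugumin-29, had 1.26, 0.807 and 0.591 CPM in WT, and 1.29, 1.56, 1.31 and 2.04 CPM in A178D hearts. The genotypes did not overlap in either gene, but the fold changes of 0.97 and 0.79 did not pass the test (edgeR, adjusted p = 0.16 and 0.224). *Stac3*, an adaptor of the skeletal calcium channel, had a fold change of -0.44 (edgeR, adjusted p = 0.562).

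*Trim72* encodes the membrane repair protein MG53. Its level was 484, 383 and 369 CPM in WT, and 515, 530, 481 and 568 CPM in A178D hearts. WT replicate 1 lay just above the lowest A178D heart, so that the genotypes overlapped. The fold change of 0.35 (SE 0.09) missed the threshold in edgeR (adjusted p = 0.0753) and passed it in DESeq2 (adjusted p = 0.0137). It also passed in edgeR with no filter on low counts, where 2.62% of genes were called (adjusted p = 0.0454), and in edgeR without WT replicate 1 (0.48, adjusted p = 0.00536). With the trends removed it did not pass (0.28; edgeR, adjusted p = 0.0902). Nor did it pass in limma-voom or in edgeR without any other single heart.

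The edited gene *Ttn* had 7245, 6247 and 6486 CPM in WT, and 5361, 6173, 6490 and 4087 CPM in A178D hearts. The genotypes overlapped, and the fold change of -0.27 did not pass the test (edgeR, adjusted p = 0.287); with the trends removed it was -0.14. A missense variant cannot be checked from gene counts, so these values do not test the genotype labels.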

How the data were processed

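Poly(A) RNA of left ventricles was sequenced, and each sample gave 1 library. The authors deposited raw counts per gene. The submitters' processing notes name bcl2fastq 2.18.0.12, HISAT2 2.1.0, SAMtools 1.6, DESeq2 1.26.0 and the build GRCm38. The counting program, its annotation and its use of strand are not given in the sources used here. A further table of normalized values was not used here. Sets of entries sharing all their counts, where these summed to at least 30, were reduced to 1 entry, and entries with fewer counts only where they repeated both an identifier and its counts. Of 21257 entries 20927 were kept. Names, positions and lengths came from GENCODE M21 (GRCm38), where 268 entries had no match.

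The main test was edgeR 4.0.16 in R 4.3.3 (TMM scaling, glmQLFit and glmQLFTest, genotype only, at least 10 counts in at least 3 libraries, Benjamini-Hochberg adjusted p under 0.05 over all 13894 tested genes). CPM were scaled by TMM. Alternatives were DESeq2 1.42.0, limma-voom 3.58.1, other scalings and filters, halved counts, offsets for trends with transcript length and GC content (mgcv 1.9.3), the replicate number as a block and each library left out. Removing both WT replicate 1 and A178D replicate 4 was added after seeing the data. Scripts were tested on simulated data. The genes, lists, motifs and tests were chosen with earlier results of these data known. Named are all 10 members, *Ttn*, called partner genes and the paralogs of 3 further pairs. Other partner and marker genes named with values were chosen after their values were seen. Protein sequences were not used here, and single values of some listed genes are not reported here.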

Additional observations from a re-analysis of the deposited data

Results flagged for a closer look

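Dixon's ratio of gap to range was computed for 21 sets of values from the 4 A178D hearts, and a single heart stood apart in 2 of them, where chance gives about 1 in 20. *Ryr2* was 1520 CPM in A178D replicate 4 against 2126 to 2203 CPM in the other A178D hearts. The same heart had the lowest fitted trend at the length and GC content of *Ryr2*, at -0.33 on the log2 scale. The part of this trend in the *Ryr2* value of that heart was not tested separately. The log2 ratio of *Ryr1* to *Ryr2* was -10.29 in A178D replicate 2 against -10.07, -10.07 and -10.08 in the others. All 4 values lay above the WT hearts, and without A178D replicate 2 the difference between the genotypes was 1.54.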

How the results depend on the processing

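The number of release-unit genes called was 2 in the main test. It was 3 with DESeq2, with the offsets for length and GC content and without both WT replicate 1 and A178D replicate 4 (chosen after seeing the data), each time with *Casq2*, and 3 with these offsets and the replicate block, with *Asph*. It was 1, *Casq1*, with an adjusted p under 0.01 and with the replicate block, and between 1 and 2 without single hearts. Of the 44 partner genes 1 was called. This became 3 with DESeq2, 2 with no filter on low counts, 3 without the same 2 hearts, 0 with an adjusted p under 0.01 and 0 with the replicate block and the offsets for length and GC content together. Without single hearts it ranged from 0 to 2. Calls over all genes also moved, from 145 higher and 182 lower in the main test to 290 and 375 with DESeq2. They were 190 and 246 with no filter on low counts, and 206 and 284 with the offsets. With the block and the offsets together they were 200 and 190, and without the same 2 hearts 353 and 407. The difference in the *Ryr1* to *Ryr2* ratio ranged from 1.29 to 1.72 without single hearts and was 1.54 with the replicate block. That of *Casq1* to *Casq2* ranged from 0.76 to 1.00 and was 0.76 with the block. These reduced designs cannot reach an adjusted p under 0.05, so that they say nothing about the call. The direction of 2 genes near 0 turned. Leaving out WT replicate 1 or A178D replicate 3 gave a fold change of 0.01 for *Hrc*, and leaving out WT replicate 4 gave 0.001, within a range of -0.05 to 0.01 over single hearts. For *Jph2*, leaving out WT replicate 4 gave -0.04 and A178D replicate 4 gave -0.07, within a range of -0.07 to 0.10. The cause was not tested. The other 8 genes kept their direction in all fits run. Samples with the same replicate number did not deviate together (correlations of 0.00313, -0.0402 and -0.0424 for numbers 1, 3 and 4), and not every heart correlated best with its own number. These values show no pairing by number, but 3 WT and 4 A178D hearts are too few to decide whether the numbers mark pairs. With the block edgeR called 124 genes higher and 147 lower, against 145 and 182 without it, and *Ryr1* had an adjusted p of 0.0585. *Asph* was called only with the block and the offsets together (edgeR, adjusted p = 0.0427). At 24 to 92 counts per heart, *Ryr1* had the lowest counts of the release-unit genes.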

Other observations

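Among the marker genes of other cells, *Cntn2*, which marks the ventricular conduction system, had 1.83, 5.14 and 3.72 CPM in WT, and 10.8, 14.3, 6.14 and 5.10 CPM in A178D hearts. Its log2 fold change was 1.36 (adjusted p = 0.0655 from edgeR), and 3 A178D hearts lay above all WT hearts. It passed the test in edgeR with the trends of length and GC content removed (1.41, adjusted p = 0.0463), with no filter on low counts and without A178D replicate 4, but not in DESeq2, limma-voom or the other 6 edgeR fits that left out 1 heart. *Gja5*, *Hcn4* and *Etv1* had log2 fold changes of -0.05, 0.08 and -0.00, none with an unadjusted p under 0.05. The 5 macrophage markers were all above 0 on this scale (median 0.20). EdgeR, DESeq2 and limma-voom called 0 of them. In edgeR 2 had an unadjusted p under 0.05, both higher in A178D, against 7.93% of all tested genes.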
